A study of Mus musculus with 18 samples.

Results

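Gucy2d, Cnga3, Pde2a, Car2, Gucy1b2 and Trpc2 are 6 genes of 2 unusual classes of olfactory sensory neuron (OSN), and they were taken by symbol from the 23359 gene symbols of an RNA-seq table of sorted mouse olfactory cells. All 6 symbols were in the table, each was above 0 in at least 1 library, and each had a value in all 18 libraries. The cells came from the main olfactory epithelium of mice labelled C57BL/6, whose lines the study's own reporting describes as of mixed background, that carried Cre recombinase behind the Taar5 or the Taar6 gene, joined by an internal ribosome entry site, and a reporter that needs Cre. In the Taar5 line (TAAR5-Cre&L10-GFP, postnatal days 11 to 14), 7 libraries of GFP-positive cells, called Taar5+ here, stood beside 9 libraries of GFP-negative cells, called control. In the Taar6 line (TAAR6-Cre&ZsGreen, postnatal days 16 to 17), 1 ZsGreen-positive library, called Taar6+, stood beside 1 ZsGreen-negative library. These ages are those of the sample labels, while the study's own reporting lists both lines at an older age, in weeks. All mice carried both the Cre allele and the reporter, so the groups differed by the sort and not by genotype. The reporter marks any cell that has made Cre, and per the study's design text most but not all of the negative cells are OSNs with odorant receptors (ORs). The labels do not say which libraries came from the same animals, so p-values measure the spread between libraries, which may be technical.

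Most OSNs signal through cAMP: a receptor activates the G protein subunit Gnal, adenylyl cyclase Adcy3 makes cAMP, and a channel built on Cnga2 opens. Necklace neurons of the epithelium instead use cGMP, with the receptor guanylyl cyclase Gucy2d (GC-D), the cGMP-sensitive channel subunit Cnga3, the cGMP-stimulated phosphodiesterase Pde2a and carbonic anhydrase Car2, and they are known for Ms4a receptors and for guanylin, CO2 and carbon disulfide responses. A further rare cell type of the epithelium expresses the soluble guanylyl cyclase subunit Gucy1b2 together with the cation channel Trpc2, the channel that carries transduction in the vomeronasal organ. The comparison asked whether cells that had used a trace amine-associated receptor (TAAR) differed in these genes from the GFP-negative cells around them.

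All 6 members are protein-coding genes in the GENCODE annotation of GRCm38. Gucy2d lies at chr7:98440416-98477479, Pde2a at chr7:101421691-101512827 and Trpc2 at chr7:102083116-102096396, all on the plus strand of chromosome 7. Cnga3 lies at chr1:37214434-37263384 (plus), Car2 at chr3:14886273-14900770 (plus) and Gucy1b2 at chr14:62392676-62456289 (minus). TPM values for 2 of these genes could hold reads of a neighbour. All 2874 exonic bases of Trpc2 also lie in exons of Xntrpc or Xndc1 on the same strand, and 48 of its 2825 stretches of 50 transcript bases occur in no other gene. Of the exonic bases of Pde2a, 64.3% also lie in Gm45837, a gene on the same strand. None of these 3 neighbours is a symbol of the table, so their reads cannot be told apart from those of Trpc2 and Pde2a. Gucy2d, Car2 and Gucy1b2 share 0% of their exonic bases with another gene.

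The start regions of both guanylyl cyclases, the genes that define the 2 neuron classes, and of Trpc2, whose own start lies inside Xndc1, are shown as the annotated starts of these genes. Where the transcripts behind the TPM values begin is not known. Each runs 5′ to 3′ on the gene's strand, from 250 bases before the start to 50 bases after it, as given by RefSeq on GRCm38.p6, and capitals mark the transcribed bases.
Gucy2d, chr7:98440166-98440465, plus strand: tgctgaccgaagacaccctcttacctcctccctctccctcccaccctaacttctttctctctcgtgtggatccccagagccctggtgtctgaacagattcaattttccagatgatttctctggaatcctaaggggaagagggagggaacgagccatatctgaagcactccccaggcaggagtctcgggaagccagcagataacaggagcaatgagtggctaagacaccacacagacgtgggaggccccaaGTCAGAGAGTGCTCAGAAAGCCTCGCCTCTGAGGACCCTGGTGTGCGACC
Gucy1b2, chr14:62456240-62456539, minus strand: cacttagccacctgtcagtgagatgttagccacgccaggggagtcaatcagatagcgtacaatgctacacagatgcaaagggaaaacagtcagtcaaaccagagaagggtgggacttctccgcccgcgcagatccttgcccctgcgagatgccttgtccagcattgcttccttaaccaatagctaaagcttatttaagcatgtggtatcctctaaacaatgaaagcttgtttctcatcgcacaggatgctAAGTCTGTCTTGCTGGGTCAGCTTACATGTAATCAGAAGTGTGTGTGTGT
Trpc2, chr7:102082866-102083165, plus strand: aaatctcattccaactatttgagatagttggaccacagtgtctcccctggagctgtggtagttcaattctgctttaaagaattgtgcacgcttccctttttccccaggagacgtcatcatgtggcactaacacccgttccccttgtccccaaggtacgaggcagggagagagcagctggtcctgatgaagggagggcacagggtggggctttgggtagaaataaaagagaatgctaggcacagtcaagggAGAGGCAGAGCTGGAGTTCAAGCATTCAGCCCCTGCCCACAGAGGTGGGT
The motifs TAATTA, the homeodomain core bound by Lhx2-type factors, and the palindromic core of the Ebf (O/E) motif, were searched on both strands. None of the 10 start windows that RefSeq gives for 5 of the members (Car2 had none in the table) held either motif, against 5.29% of 32851 windows with the first and 0.904% with the second. This says only that these letters are not in these windows.

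Within the cells sorted here, the 6 genes spanned levels from 179 TPM down to 0. The order by median TPM, a per-length scale, was Car2 (80.2), Trpc2 (18.2), Pde2a (2.35), Gucy1b2 (2.23), Gucy2d (1.13) and Cnga3 (0) in the 9 controls. In the 7 Taar5+ libraries it was Car2 (33.4), Pde2a (9.25), Gucy1b2 (8.06), Trpc2 (5.33), then Gucy2d and Cnga3 (both 0). Car2 was the highest of the 6 in each of the 16 libraries of the Taar5 line. Below it the order was less firm. Trpc2 exceeded Pde2a in 7 of 9 controls but in 1 of 7 Taar5+ libraries, while Pde2a exceeded Gucy1b2 in 6 of 9 controls and 5 of 7 Taar5+ libraries, so this last pair did not separate beyond its spread in either group. Gucy2d exceeded Cnga3 in 4 of 9 controls and 1 of 7 Taar5+ libraries, with both genes listed at 0 in 4 and 5 of them.

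**Figure D1:**
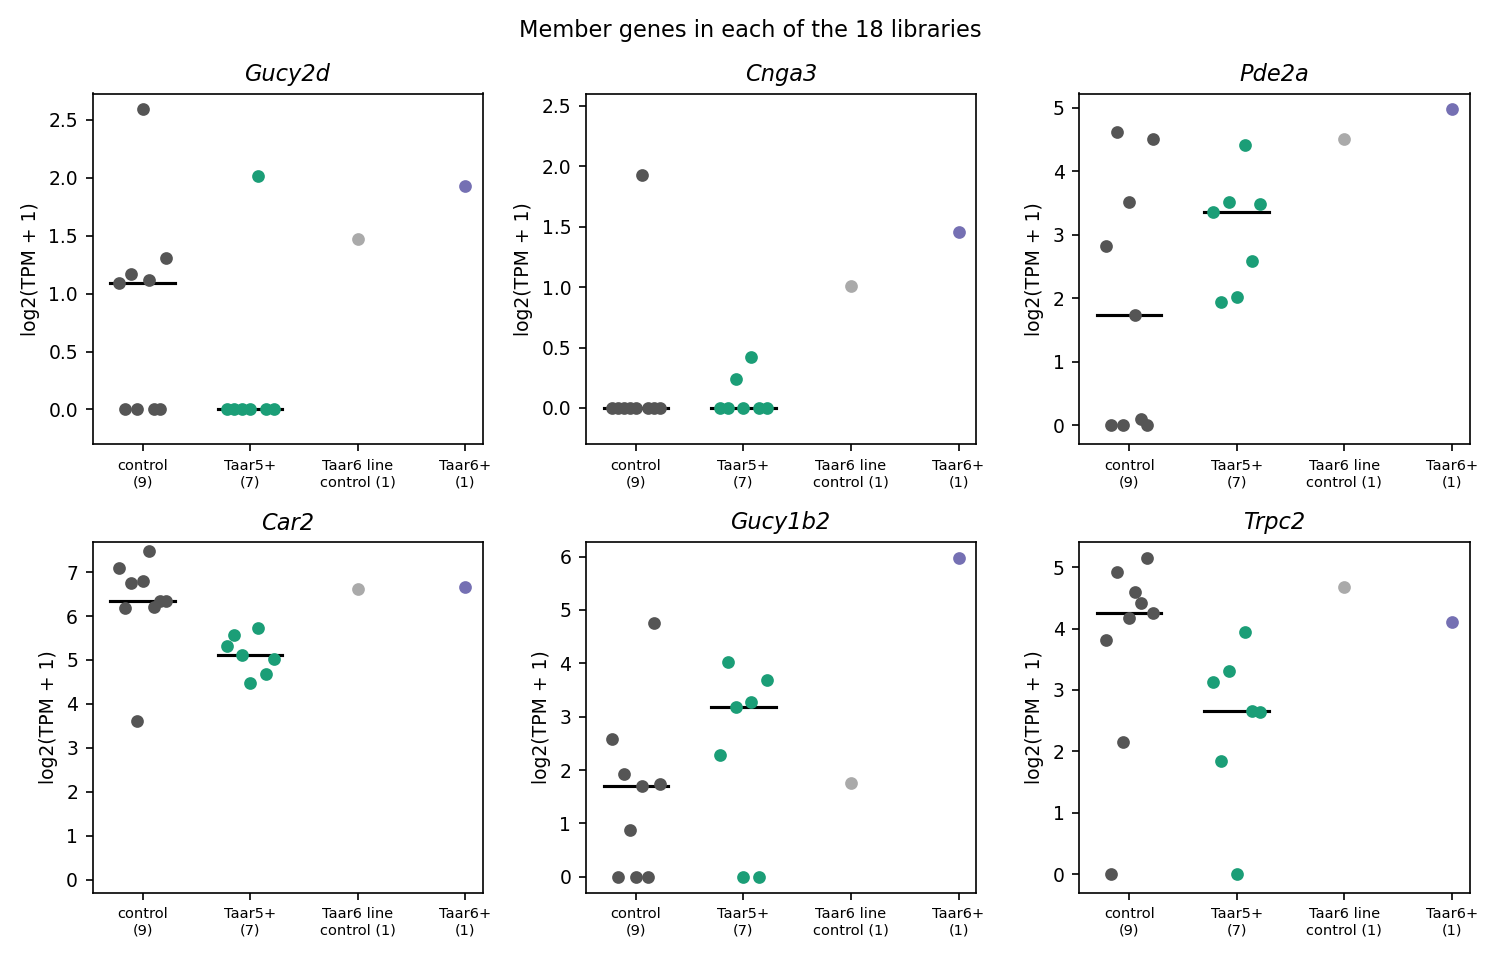
TPM of the 6 genes in every library, on a log2(TPM + 1) axis whose range differs between panels. Each point is 1 library, lines are group medians, and numbers in parentheses are libraries. Car2 sat lower in the 7 Taar5+ libraries than in 8 of 9 controls, and Gucy2d and Cnga3 were at 0 in most libraries of the Taar5 line.

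A pair of libraries stood apart from their groups. Control replicate 2 had 5891 symbols above 0 against 11259 to 16888 in the other controls, and it listed at 0 as many as 639 of the 3204 genes whose median elsewhere reached 50 TPM, where each of the other 15 libraries listed 0 to 47 such genes at 0. Of the 6 members, 5 were at 0 in it. Taar5+ replicate 5 had 5525 TPM of OR transcripts in all against 225 to 1999 in the other 6, and 1517 TPM of Taar transcripts against 4542 to 7804. It was the only Taar5+ library with all 6 members above 0. The mature OSN marker Omp was at 3908 to 20070 TPM in controls and 8597 to 18195 TPM in Taar5+ libraries, and Stoml3, the 1 called of 5 mature OSN markers, was lower in Taar5+ cells (log2 fold change −1.42, limma adjusted p = 0.00994). Of 5 vomeronasal markers, Tfap2e and Fpr3 were at 0 in all 16 libraries, while Gnao1 was at 31.9 to 150 TPM, Gnai2 reached 9.29 TPM and Meis2 3.30 TPM, and 0 of the 2 tested were called. Depth is unknown, because the table holds TPM without counts.

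Across all genes, limma on log2(TPM + 1) called 21 of 12502 genes tested (0.168%), 18 higher and 3 lower in Taar5+ cells. Of the 6 members, 4 passed the filter on low values and 0 of those 4 were called, 2 with a fold change above 0 and 2 below 0. At an unadjusted p under 0.05, 1 of the 4 passed (Car2, lower), against 7.05% of all genes tested, of which 672 were lower and 209 higher. The groups did not overlap in 0.144% of genes tested, and none of the 6 members was among them. All fold changes here are Taar5+ minus control on the log2(TPM + 1) scale, which understates the change of low genes. In bulk cells, fewer cells of a type and less RNA per cell cannot be told apart.

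Car2, a cytosolic carbonic anhydrase that turns CO2 into bicarbonate, had the smallest p of the members. Its TPM in control replicates 1 to 9 was 135, 72.0, 107, 11.3, 111, 179, 72.3, 79.7 and 80.2. In Taar5+ replicates 1 to 7 it was 39.2, 46.3, 33.4, 21.1, 52.2, 24.5 and 31.4. Thus 8 of 9 controls lay above all Taar5+ libraries, and control replicate 4 lay below all of them. The means were 94.1 ± 46.8 TPM (SD, n = 9) and 35.4 ± 11.2 TPM (SD, n = 7). The log2 fold change was −1.19 (SE 0.43, 95% interval −2.10 to −0.28), and limma gave an adjusted p of 0.433, rank 384 of 12502 genes. The difference did not pass the threshold.

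That outcome turned on a single library. Without control replicate 4, the 8 remaining controls spanned 72.0 to 179 TPM, with a mean 2.95 times that of the Taar5+ libraries. They no longer overlapped with the Taar5+ range of 21.1 to 52.2 TPM. Replicate 4 was the only control not above all Taar5+ libraries, so leaving it out ends the overlap and lowers the p by construction. The log2 fold change was then −1.52 (SE 0.29, limma adjusted p = 0.0285), in a fit that called 0.252% of 12325 genes, and 0.0811% of those genes were lower in Taar5+ cells without overlap. Leaving out any other single library gave log2 fold changes of −1.29 to −1.04, none called. With array weights, which let limma give less weight to libraries that vary more, Car2 was also called (−1.55, SE 0.22, adjusted p = 6.46e-05), but this fit called 10.6% of all genes.

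Of the 15 other carbonic anhydrases in the table, 5 were tested and 0 were called, 2 with a log2 fold change above 0 (Car7, 0.17, and Car15, 0.84) and 3 below 0. Their median was −0.19, beside 0.02 over all genes tested, and 2 had an unadjusted p under 0.05, both lower in Taar5+ cells. Car11, a catalytically inactive relative, was at 20.02 to 72.2 TPM (median 42.3) in controls and 0 to 28.3 TPM (median 10.2) in Taar5+ cells, overlapping in a narrow range (−2.17, SE 0.56, limma adjusted p = 0.191). Car12, a membrane-bound form, was at 0 in 4 of 7 Taar5+ libraries and 1 of 9 controls, with a control median of 9.32 TPM (−2.32, SE 0.70, limma adjusted p = 0.282). Car4, the third most abundant, was at 0 in 5 of 9 controls and 4 of 7 Taar5+ libraries (−0.19, SE 0.92).

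Car2 is also used by red blood cells and several epithelial cells, and markers of some other cell types lay lower in Taar5+ libraries as well. The summed TPM of 7 immune markers was 98.5 to 747 (median 260) in controls and 0 to 394 (median 13.2) in Taar5+ libraries, of which all but replicate 5 reached at most 127, and 4 of the 6 tested had an unadjusted p under 0.05, all lower. For the 3 horizontal basal cell markers the sums were 0 to 123 (median 98.0) and 0 to 181 (median 5.01), with all 3 at an unadjusted p under 0.05. Without control replicate 2 and Taar5+ replicate 5 these sums were 60.1 to 123 and 0 to 17.5, with no overlap. These libraries held the control sum of 0 and the Taar5+ sum of 181, so the lack of overlap follows from leaving them out. Sums of the 5 microvillar cell markers had medians of 325 and 61.9, and 2 of the 4 tested had an unadjusted p under 0.05, both lower. Sustentacular markers did not share this direction: 3 of 5 had a fold change above 0, with a median of 0.54, and Muc2 had an unadjusted p under 0.05 on the higher side (2.18, SE 0.80). None of these markers was called. Erythroid markers reached 6744 TPM in control replicate 1 and 1.25 TPM in control replicate 8, where Car2 was at 135 and 79.7 TPM, and in control replicate 4, lowest in Car2, they were at 1728. The part of other cell types in the Car2 difference was not tested.

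Trpc2, the cation channel shared by vomeronasal neurons and Gucy1b2 cells, also had lower values in Taar5+ cells. Its TPM in control replicates 1 to 9 was 13.05, 0, 29.3, 3.46, 17.03, 23.1, 20.3, 34.5 and 18.2. In Taar5+ replicates 1 to 7 it was 7.79, 2.57, 8.93, 0, 14.3, 5.33 and 5.23. All 7 Taar5+ values lay under the control median of 18.2 TPM, and 6 controls lay above all Taar5+ libraries, but control replicates 1, 2 and 4 overlapped with them. The log2 fold change was −1.22 (SE 0.74, 95% interval −2.76 to 0.33), with a limma adjusted p of 0.870. Without control replicate 2 it was −1.68 (SE 0.57, adjusted p = 0.211), and without both libraries that stood apart −1.92 (SE 0.58, adjusted p = 0.0962). With array weights it was called (−1.51, SE 0.33, adjusted p = 0.00419), in the fit that called 10.6% of all genes.

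Trpc2 had the highest listed median of the TRPC channels in controls, though reads of Xntrpc or Xndc1 cannot be told apart in that value. Trpc1 had a median of 1.53 TPM there and Trpc4 4.31 TPM, while Trpc6 and Trpc7 were at 0 in all 16 libraries. Trpc2 exceeded Trpc1 in 8 of 9 controls and in 4 of 7 Taar5+ libraries. Of the 2 other TRPC genes tested, 0 were called, and they lay on opposite sides of 0. Trpc1 had a log2 fold change of 0.61 (SE 0.61). Trpc4 was at 0 in 5 of 7 Taar5+ libraries and 2 of 9 controls (−1.57, SE 0.58, limma adjusted p = 0.439).

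Gucy1b2, the partner of Trpc2 in that rare cell type, had its fold change on the other side of 0. Its TPM in control replicates 1 to 9 was 4.98, 0, 2.82, 0.842, 0, 2.23, 0, 25.9 and 2.34. In Taar5+ replicates 1 to 7 it was 3.86, 15.4, 8.06, 0, 8.72, 0 and 11.9. The groups overlapped over almost their whole range, since both held libraries at 0 and the highest value of the 16 was that of control replicate 8. The log2 fold change was 0.84 (SE 0.77, 95% interval −0.76 to 2.45, limma adjusted p = 0.948), and 1.25 without control replicate 8 (adjusted p = 0.817). Array weights gave a call (1.52, SE 0.48, adjusted p = 0.0455), in the fit that called 10.6% of all genes. Trpc2 exceeded Gucy1b2 in 8 of 9 controls, both being at 0 in the other, and in 4 of 7 Taar5+ libraries.

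Other soluble cyclase subunits were at or near 0. Gucy1b3, the usual beta subunit, had a median of 0 in both groups and a highest value of 2.04 TPM, and Gucy1a3, an alpha subunit, reached at most 1.96 TPM. Gucy1b2 was the one subunit of the 4 in the table that passed the filter.

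Pde2a, the phosphodiesterase of the necklace neurons, was above 0 in all 7 Taar5+ libraries and in 6 of 9 controls. Its TPM in control replicates 1 to 9 was 6.11, 0, 23.5, 0, 10.4, 2.35, 0.0654, 0 and 21.8. In Taar5+ replicates 1 to 7 it was 9.25, 2.86, 10.5, 3.07, 20.3, 4.99 and 10.2. The Taar5+ values fell inside the control range, which was split between 5 libraries below and 2 above all Taar5+ values. The log2 fold change was 1.13 (SE 0.78, 95% interval −0.51 to 2.76, limma adjusted p = 0.922). It was 0.66 (SE 0.79) without both libraries that stood apart, and its sign turned with array weights (−0.19, SE 0.52, adjusted p = 0.888).

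Among the other phosphodiesterases, 11 of 23 were tested and 0 were called, with a median log2 fold change of 0.21. Pde6d, a prenyl-binding subunit with the highest level, had medians of 1196 TPM in controls and 939 TPM in Taar5+ cells. Pde4a and Pde1c, the cAMP phosphodiesterases of ordinary OSNs, had control medians of 251 and 230 TPM, which are 107 and 97.9 times the Pde2a median. In Taar5+ cells the same ratios were 30.1 and 29.2. Pde2a as a share of Pde1c plus Pde2a was 3.09% ± 4.10 (SD, n = 9) in controls and 3.72% ± 2.65 (SD, n = 7) in Taar5+ cells, a difference of 0.63 percentage points (exact two-sided permutation test, p = 0.728, adjusted p = 1 over 2 shares). This difference turned to −0.24 without Taar5+ replicate 5.

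Gucy2d, the receptor cyclase that defines necklace neurons, was close to the bottom of the scale. Its TPM in control replicates 1 to 9 was 1.13, 0, 1.25, 0, 5.04, 1.17, 0, 0 and 1.47. Taar5+ replicate 5 listed it at 3.04 TPM and the other 6 Taar5+ libraries listed it at 0. It was thus above 0 in 5 of 9 controls and 1 of 7 Taar5+ libraries, and it failed the filter. These were the libraries with the most symbols above 0, at 14527 to 16888 in the controls and 17653 in Taar5+ replicate 5. Every library that listed Gucy2d at 0 had at most 14378 symbols above 0. The part of detection in this difference between the groups was not tested. On the log2(TPM + 1) scale the means differed by −0.52 (p = 0.211 by exact permutation over 11440 splits, two-sided).

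Cnga3, the channel subunit of the same neurons, was listed at 0 in 8 of 9 controls and 5 of 7 Taar5+ libraries. The values above 0 were 2.80 TPM in control replicate 6 and 0.183 and 0.336 TPM in Taar5+ replicates 3 and 5. The means of log2(TPM + 1) differed by −0.12 (exact permutation, p = 1), which turned to 0.09 without control replicate 6. With so few libraries above 0, no split of the libraries could give a p under 0.05. The test therefore could not show a difference, and its p says nothing on whether the groups were alike. Cnga2, the channel subunit of ordinary OSNs, had medians of 1464 TPM in controls and 1391 TPM in Taar5+ cells. Cnga3 made up at most 0.112% of Cnga2 plus Cnga3 in controls and at most 0.0283% in Taar5+ cells (difference −0.00693 percentage points, exact permutation p = 1, adjusted p = 1 over 2 shares). The test of this share has the same limit.

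**Figure D2:**
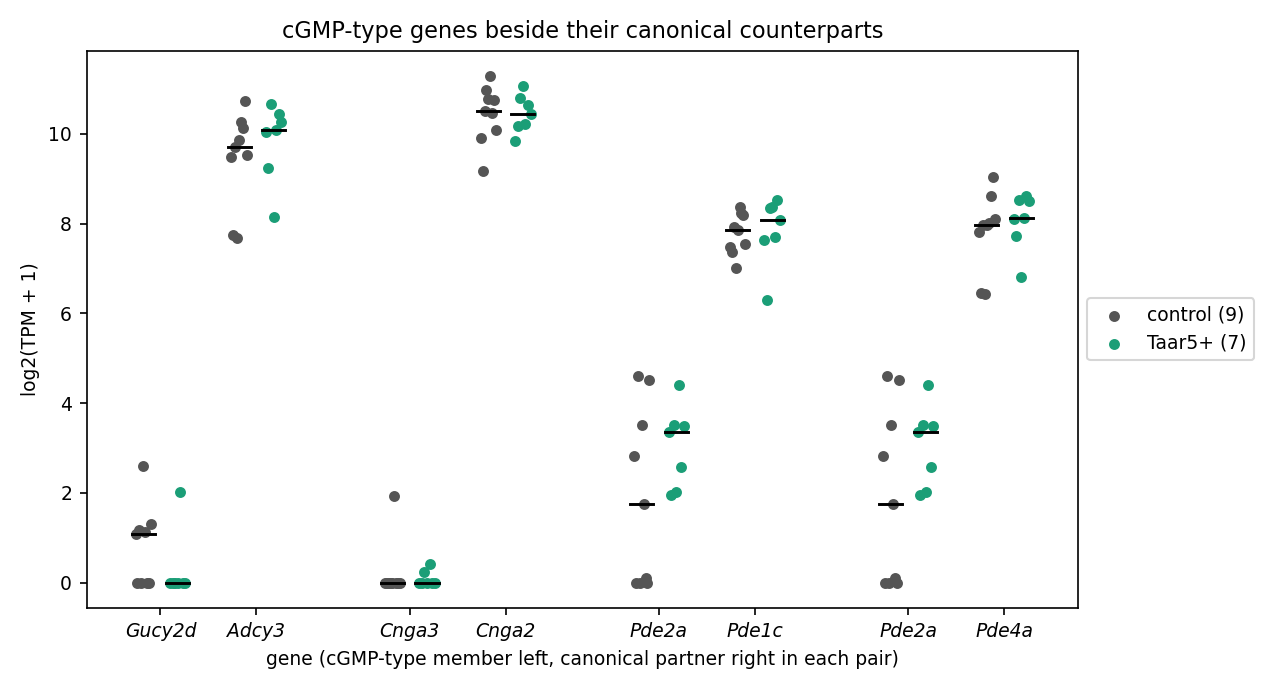
Level of the cGMP-type genes beside a gene with the matching role in cAMP signalling, per library on a log2(TPM + 1) axis, with controls in grey, Taar5+ libraries in green and lines at group medians. Each cGMP-type gene lay below its partner in all 16 libraries.

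Most other genes of cGMP signalling were near 0. The receptor cyclases Gucy2c and Npr2, which with Gucy2d had the highest means of 7, had control medians of 0.652 and 0 TPM and Taar5+ medians of 1.73 and 0 TPM, and the cGMP-dependent kinases Prkg1 and Prkg2 reached at most 1.11 TPM in the Taar5 line. Of the 10 ligands and activators of guanylyl cyclases, 2 were tested and 0 called. Nppc, the precursor of C-type natriuretic peptide, had medians of 10.02 TPM in controls and 4.59 TPM in Taar5+ cells (log2 fold change −0.26, SE 0.83). Nos3, a nitric oxide synthase, was at 1.85 and 1.69 TPM, Nppa was at 0 in 7 of 9 controls and 5 of 7 Taar5+ libraries, and Guca2b, which encodes the Gucy2d ligand uroguanylin, was at 0 in all 16.

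The Ms4a family, the receptor type of the necklace neurons, had a median summed TPM of 10.8 in controls and 0 in Taar5+ libraries. Of its 16 genes in the table, 8 were at 0 in all controls, 8 in all Taar5+ libraries, and 1 was tested (Ms4a6c, −0.92, SE 0.55, limma adjusted p = 0.868). Ms4a7 and Ms4a6d, the 2 with the highest mean, reached 62.5 and 17.4 TPM in controls and 11.8 and 5.05 TPM in Taar5+ cells, with Taar5+ medians of 0 for both. Macrophages also use several Ms4a genes, and the immune marker sums given above moved in the same direction. Their part in these values was not tested.

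The 8 genes of the cAMP cascade gave a contrast in scale. All 8 were tested and 0 were called, with a median log2 fold change of 0.15 and a range from −0.53 for Cnga4 to 0.38 for Cngb1. Cnga2 had a log2 fold change of 0.01 (95% interval −0.52 to 0.54). Adcy3 medians were 831 TPM in controls and 1080 TPM in Taar5+ cells, where Gucy2d medians were 1.13 and 0. The intervals of the cAMP genes were narrower than those of Trpc2, Pde2a and Gucy1b2, whose values included zeros.

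**Figure D3:**
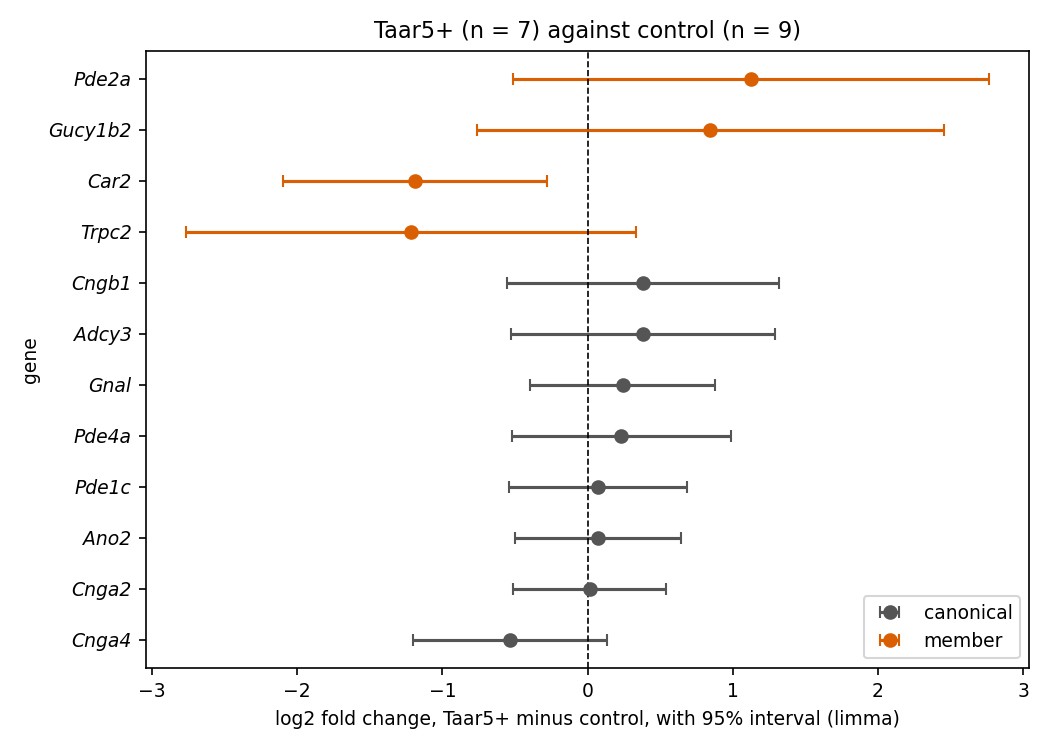
Log2 fold change, Taar5+ minus control on the log2(TPM + 1) scale, with 95% intervals from limma, for the 4 members that passed the filter (orange) and 8 cAMP-cascade genes (grey). The Car2 interval of −2.10 to −0.28 was the one interval that left out 0 before adjustment.

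**Figure D4:**
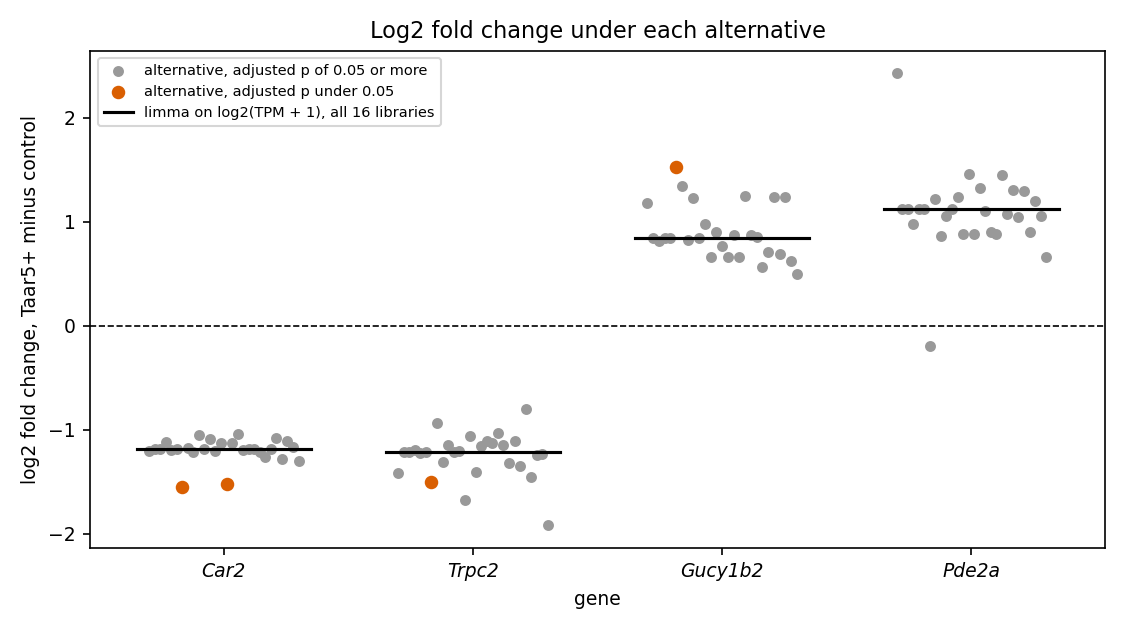
Log2 fold change of the 4 tested members under each alternative setting (points) beside the value in the text (line). Orange points had an adjusted p under 0.05. Car2 and Trpc2 stayed below 0 and Gucy1b2 above 0 in every alternative run, and Pde2a fell below 0 with array weights.

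The members did not move as one set in controls, where Pearson r between members ran from −0.16 to 0.80. In Taar5+ cells every r was above 0, from 0.24 to 0.85. Correlations of log2(TPM + 1) are given within each group, as a description. In controls the highest was that of Gucy2d with Pde2a (Pearson r = 0.80, Spearman rho = 0.89, n = 9, of which 5 libraries had both above 0). The 4 controls with Gucy2d at 0 had Pde2a at 0 to 0.0654 TPM. They were also the controls with the fewest symbols above 0, at 5891 to 11603 against 14527 to 16888 in the rest. The part of detection in this r was not tested. Gucy1b2 and Trpc2 had r = 0.51 in controls (n = 9) and 0.50 in Taar5+ cells (n = 7). In Taar5+ cells the highest r was that of Gucy2d with Cnga3 (r = 0.85, rho = 0.76, n = 7), but only 1 library had both above 0. Cnga3 with Pde2a had r = 0.75, with both above 0 in 2 libraries. In the same group Pde2a followed Trpc2 (r = 0.84, rho = 0.86, n = 7) and Car2 followed Gucy1b2 (r = 0.80, rho = 0.67, n = 7). The points share library quality: control replicate 2 and Taar5+ replicate 4, with the most abundant genes at 0 in their groups (639 and 47), also had the most members at 0 (5 and 4). At the other end, Taar5+ replicate 5 had the most symbols above 0 (17653). It was the highest of the 7 Taar5+ libraries in Gucy2d, Cnga3, Pde2a, Car2 and Trpc2, though not in Gucy1b2. The part of these libraries in the r values was not tested.

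The 3 genes whose pattern was most like that of Trpc2, Gucy1b2 or Pde2a were not the same in controls and in Taar5+ cells. Over the 9 controls these were Mapk4, Ypel4 and Kirrel2 for Trpc2 (r of 0.99, and 0.95 to 0.97 without control replicate 2). For Gucy1b2 they were Ctf1, Orai1 and Arhgef12 (r from 0.94 to 0.97), and for Pde2a Zfp518a, Pcdhgb4 and Col18a1 (r of 0.985 or more). Over the 7 Taar5+ libraries they were Crocc, Timeless and Cygb for Car2, Llgl1, 3110062M04Rik and Akap12 for Trpc2, Nhlrc1, Nek3 and Pcdhga4 for Gucy1b2, and Mfap3l, Ptbp1 and Spint1 for Pde2a, all with r from 0.97 to 0.99. With 12501 genes compared over so few libraries, these are descriptions only.

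In the Taar6 line, with 1 library a group and so no test, Gucy1b2 was the member that stood out. It was at 61.9 TPM in the Taar6+ library and 2.39 TPM in its control, a difference of 4.21 in log2(TPM + 1). Trpc2 was at 16.2 and 24.6 TPM in the same libraries. Car2 was nearly level, at 101 TPM in the positive library against 97.4 TPM. Pde2a was at 30.5 and 21.9 TPM, Gucy2d at 2.80 and 1.77 TPM, and Cnga3 at 1.74 and 1.02 TPM. All 6 members were above 0 in both libraries of that line.

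Immune markers were also higher in the Taar6+ library, with a sum of 975 TPM against 337 TPM in its control, as were sustentacular markers, with 1262 TPM against 159 TPM, and Ms4a7 was at 83.7 TPM against 5.86 TPM. Their part in the Gucy1b2 value was not tested. Levels were not compared between the lines, because reporter and age differed with the line, and Gapdh was at 1.43 TPM in Taar6+ cells and 6.06 TPM in their control against 436 to 1222 TPM in the Taar5 line.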

How the data were processed

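Sorted cells were profiled with Smart-seq2 in 18 libraries. The authors deposited 1 table of TPM, a unit scaled for transcript length and library total, per gene, and the submitters' processing notes name Trimmomatic 0.36, HISAT2 2.1.0, Cufflinks 2.2.1 and DESeq2 with mm10/GRCm38. How the TPM were made and with which annotation is not given in the sources used here. TPM keep no depth, so no counting interval could be given, and the protocol marks no strand and counts no molecules.

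Rows of 1 symbol were summed (23847 rows to 23359 symbols). The Taar values of control replicate 2 repeat those of control replicate 1 and were set to missing. Genes that reached 1 TPM in 7 or more of the 16 Taar5-line libraries were fitted on log2(TPM + 1) by limma 3.58.1 in R 4.3.3, with a mean-variance trend. P-values were adjusted over 12502 genes (Benjamini-Hochberg) and called under 0.05. Gucy2d and Cnga3 failed this filter and were tested, like the 2 shares, by exact permutation of libraries. The study counted reads for its own tests; counts were not used here. The code was tested on simulated data. All 6 members were named with values; of each gene list, the 3 most abundant genes and any past the threshold were named, and others where a value touched a result, such as Car12. The members, lists and tests were chosen with earlier results of these data known. Among the alternatives, leaving out both libraries that stood apart was chosen after seeing the data. The genes most like Car2 across controls are not reported here.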

Additional observations from a re-analysis of the deposited data

Results flagged for a closer look

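In each group of the Taar5 line, the highest and lowest library were compared with the rest by Dixon's criterion. Of 16 groups of values checked, 6 held a library far from the others, all at the high end. The nominal rate of 1 in 20, or 0.8 groups, does not apply here, because several groups were mostly zeros. In such a group a single value above 0 is flagged by construction. The Cnga3 TPM and Cnga3 share flags in control replicate 6 rest on the same value. Gucy2d was at 5.04 TPM in control replicate 5, where the next control had 1.47 TPM, and at 3.04 TPM in Taar5+ replicate 5, where the other 6 were at 0. Cnga3 was at 2.80 TPM in control replicate 6 and at 0 in the other 8 controls. Gucy1b2 was at 25.9 TPM in control replicate 8, where the next control had 4.98 TPM. The Cnga3 share of Cnga2 plus Cnga3 was 0.112% in control replicate 6, and 0.0283% in Taar5+ replicate 5, where the next Taar5+ library had 0.0102%.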

How the results depend on the processing

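Of 28 alternatives, Car2 kept its direction in 28 and its side of the threshold in 26, with limma adjusted p from 6.46e-05 to 0.782. Trpc2 kept its direction in 28 (log2 fold change −1.92 to −0.80, adjusted p 0.00419 to 0.999), Gucy1b2 in all 27 that gave a value (0.50 to 1.52, adjusted p 0.0455 to 0.999), and Pde2a in all but array weights, where it was −0.19. The number of the 4 tested members called was 3 with array weights (Car2, Trpc2, Gucy1b2) and 0 to 1 when 1 library was left out, the 1 being Car2 without control replicate 4. The number of all genes called was 109 with quantile normalization, 11 after rescaling without receptor genes, 1329 with array weights, 16 to 148 when 1 library was left out (148 without control replicate 2, 66 without Taar5+ replicate 5), and 337 without both of these. In the other gene lists it was 1 with quantile normalization (Car11), 7 with array weights (Car11, Car12, Cnga4, Ms4a6c, Pde10a, Pde1a and Trpc4), 0 to 1 when 1 library was left out (Car12, without control replicate 2 or Taar5+ replicate 5), and 2 without both (Car11 and Car12). The causes were not tested.

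Leaving out 1 library at a time gave Pde2a log2 fold changes of 0.88 to 1.46, Car2 −1.52 to −1.04, Gucy1b2 0.56 to 1.25 and Trpc2 −1.68 to −0.80. Differences in mean log2(TPM + 1) were −0.81 to −0.30 for Gucy2d and −0.17 to 0.094 for Cnga3, the sign turning without control replicate 6. The difference in Cnga3 share was −0.0107 to 0.00551 percentage points, positive without control replicate 6, and in Pde2a share −0.24 to 1.56, negative without Taar5+ replicate 5. Without both libraries that stood apart, the Pde2a share difference was −0.63, and the Gucy2d difference was −0.91 (exact permutation, p = 0.0310). This setting removes the 1 Taar5+ library above 0 for Gucy2d and a control at 0, so the lower p follows from its construction.

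Positive and negative libraries share replicate numbers, but the correlation of their deviations was −0.01 to 0.28 and 3 of 7 numbers matched best with their own, so the numbers were not taken as pairs. With the replicate block, 13 genes were called in all, 0 of them members or listed genes, and Car2 was at −1.18 (adjusted p = 0.483), Trpc2 −0.94, Gucy1b2 1.34 and Pde2a 1.22.

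Depth is unknown, so what a value of 0 allows cannot be given, and Gucy2d and Cnga3 were not ranked between the groups.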
